A study of Mus musculus with 59 samples.

Results

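Growth hormone, STAT and SOCS genes were examined for binding of BCL6, PPARα and PPARδ in mouse liver, using 10 genes: *Ghr*, *Jak2*, *Stat3*, *Stat5a*, *Stat5b*, *Socs1*, *Socs2*, *Socs3*, *Cish* and *Igf1*. A ChIP-seq peak was given to one of these genes when its center lay inside the gene, or when the nearest transcription start site (TSS) of a protein-coding RefSeq gene lay within 100 kb and belonged to it. By this rule 303 of 102931 peaks in 7 lists fell at the 10 genes, of 21774 protein-coding genes in all. Peaks whose centers lay within 200 bp of each other were joined across the lists into one site, which gave 97 sites of 40474.

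All livers came from male C57BL/6 mice. BCL6, PPARα and PPARδ were each mapped in wild-type mice that were fed ad libitum and in wild-type mice fasted overnight, and BCL6 was also mapped in fed *Bcl6* fl/fl mice, the floxed controls of the hepatocyte knockout, which carry the loxP sites with no Cre. Ages are not given in the labels. Each list was called over 3 replicates, 21 of the 59 samples, and holds only the position of each peak, so a site is called or not called, no value has a spread between replicates, and the depth is unknown. Total peaks per list ran from 2399 for fasted PPARδ to 29085 for fasted PPARα.

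Growth hormone binds its receptor GHR on hepatocytes and activates the kinase JAK2, which phosphorylates STAT5A and STAT5B. Phosphorylated STAT dimers bind elements with the core TTCNNNGAA and induce *Igf1*, which carries the growth signal into the circulation, and the genes of the feedback inhibitors SOCS2 and CISH. BCL6 is a transcriptional repressor whose zinc fingers read an element, TTCCTAGAA, that contains the STAT core, and it is known to share sites with STAT5 in liver. PPARα drives fatty acid oxidation in fasting, and PPARs bind, with RXR, direct repeats of AGGTCA spaced by 1 base, called DR1 elements.

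At BCL6 sites of these genes the STAT core recurred in the DNA, and the sequences below show it. All coordinates are mm10 and all letters are from the plus strand of the RefSeq assembly GRCm38.p6, the same build. The first lines are the places where neighboring cores stood side by side within 30 bases, chosen after the matches were seen, with the cores in capitals. A pair of them lies at the *Cish* start, in a site called in all 7 lists, and the other line lies in the first exon of *Socs2*, in a site called in both states for BCL6 and PPARα.

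*Cish* promoter, chr9:107296659-107296678: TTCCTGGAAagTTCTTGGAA

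*Cish* promoter, chr9:107296764-107296789: TTCTAGGAAgatgaggcTTCCGGGAA

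*Socs2* first exon, chr10:95416904-95416923: TTCCAGGAActTTCCAGGAA

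The next lines show, for the genes with 5 or more sites, the 200 bases around the center of the site called in most lists outside untranslated exons, and of tied sites the one nearest to a start. Capitals mark matches to TTCNNNGAA or, with up to 1 mismatch, to TTCCTAGAA. The *Ghr*, *Stat3* and *Stat5b* sites hold no match. *Igf1* had 5 sites tied at 6 lists, of which 3, at 39.2, 48 and 57.7 kb, hold no match. At *Socs1* and *Jak2*, which had fewer sites and are not shown, the site chosen in the same way held a match and no match, respectively.

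*Ghr*, 18.6 kb upstream, chr15:3601817-3602016: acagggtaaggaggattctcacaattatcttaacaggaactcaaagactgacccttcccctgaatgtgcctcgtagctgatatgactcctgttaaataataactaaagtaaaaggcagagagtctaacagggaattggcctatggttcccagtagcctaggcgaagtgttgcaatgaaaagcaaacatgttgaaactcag

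*Stat3*, intron 1, chr11:100938208-100938407: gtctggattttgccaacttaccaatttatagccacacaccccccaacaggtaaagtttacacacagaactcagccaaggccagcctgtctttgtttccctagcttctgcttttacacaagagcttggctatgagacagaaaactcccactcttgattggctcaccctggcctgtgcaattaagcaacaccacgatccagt

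*Stat5a*, intron 5, chr11:100870417-100870616: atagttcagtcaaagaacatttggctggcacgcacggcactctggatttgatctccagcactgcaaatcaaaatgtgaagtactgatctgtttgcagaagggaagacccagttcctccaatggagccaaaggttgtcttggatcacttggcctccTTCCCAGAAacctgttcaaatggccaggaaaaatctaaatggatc

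*Stat5b*, intron 1, chr11:100829006-100829205: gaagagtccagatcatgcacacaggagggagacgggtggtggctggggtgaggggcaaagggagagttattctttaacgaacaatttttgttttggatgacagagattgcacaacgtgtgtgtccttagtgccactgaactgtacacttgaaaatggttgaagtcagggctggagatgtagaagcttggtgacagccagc

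*Socs2*, 13.1 kb upstream, chr10:95430348-95430547: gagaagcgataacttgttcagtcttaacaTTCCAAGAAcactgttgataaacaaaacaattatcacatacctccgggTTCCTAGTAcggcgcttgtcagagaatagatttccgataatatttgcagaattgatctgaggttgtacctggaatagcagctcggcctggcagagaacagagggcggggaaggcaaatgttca

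*Socs3*, 4.98 kb from the 5′ end, chr11:117965253-117965452: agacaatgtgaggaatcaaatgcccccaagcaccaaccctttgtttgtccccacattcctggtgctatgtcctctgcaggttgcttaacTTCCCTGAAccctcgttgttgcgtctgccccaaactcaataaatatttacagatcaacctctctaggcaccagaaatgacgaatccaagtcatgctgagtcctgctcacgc

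*Cish*, 11.4 kb from the 5′ end, chr9:107307951-107308150: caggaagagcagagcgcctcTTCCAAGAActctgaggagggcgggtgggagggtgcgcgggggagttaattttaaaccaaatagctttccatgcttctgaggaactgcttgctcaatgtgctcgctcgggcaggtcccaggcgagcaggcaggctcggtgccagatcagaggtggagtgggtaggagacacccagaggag

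*Igf1*, intron 2, chr10:87894815-87895014: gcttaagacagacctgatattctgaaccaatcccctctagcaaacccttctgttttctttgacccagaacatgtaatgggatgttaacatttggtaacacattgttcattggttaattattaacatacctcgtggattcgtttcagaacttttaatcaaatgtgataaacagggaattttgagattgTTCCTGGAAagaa

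The genes differed widely in the number of sites. *Ghr* had 26, *Igf1* 19, *Stat5b* 13 and *Socs2* 12, while *Socs3* had 8, *Stat3* 6, *Stat5a* and *Cish* 5 each, *Socs1* 2 and *Jak2* 1. The median was 7 sites per gene, against 1 over all protein-coding genes, of which 52.5% had any site. Only 0.188% of protein-coding genes had as many sites as *Ghr* or more, and 0.528% had as many as *Igf1* or more. When peaks were counted by the nearest start alone, *Ghr* had 14 sites and *Igf1* 19. Both are long genes, and sites were also counted per Mb of the stretch that the rule gives to each gene. On that scale *Cish* led with 210 sites per Mb, followed by *Stat5b* with 166, *Socs3* with 140, *Socs2* with 133 and *Stat5a* with 122. *Igf1* had 93.7, *Stat3* 87.8, *Ghr* 71.1, *Socs1* 20.8 and *Jak2* 8.08. At least as dense as *Cish* were 1.24% of protein-coding genes, as *Stat5b* 2.48%, as *Igf1* 8.76% and as *Ghr* 13.4%, so *Ghr* and *Igf1* stood out less by density than by count. The 10 genes together had 85.6 sites per Mb, against 20.2 over all protein-coding genes. That background includes genes with no site in any list and was not limited to genes expressed in liver. The difference is therefore not shown to be particular to these 10 genes. The counts carry no error between replicates, so neighbors in this order were not tested against each other.

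By list, 46 fed and 35 fasted BCL6 peaks lay at these genes, and 57 BCL6 peaks of fed floxed livers. PPARα had 67 fed and 75 fasted peaks, and PPARδ had 19 fed and 4 fasted peaks. Peaks per Mb at the 10 genes exceeded those over all genes 5.39 times for fed BCL6, 6.53 times for fasted BCL6, 5.85 times for floxed BCL6, 5.57 times for fed PPARα, 4.50 times for fasted PPARα, 4.58 times for fed PPARδ and 2.97 times for fasted PPARδ. Fed BCL6 peaks were present at 7 of the 10 genes, where 28% of all protein-coding genes had one, and fasted BCL6 peaks at 8 of 10, against 20.6%. For PPARα 9 of 10 genes had a fed peak, against 34.3%, and 9 of 10 a fasted peak, against 46%. Fed PPARδ peaks were present at 6 of 10 genes, against 18.6%, and fasted PPARδ peaks at 4 of 10, against 8.69%.

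**Figure D1:**
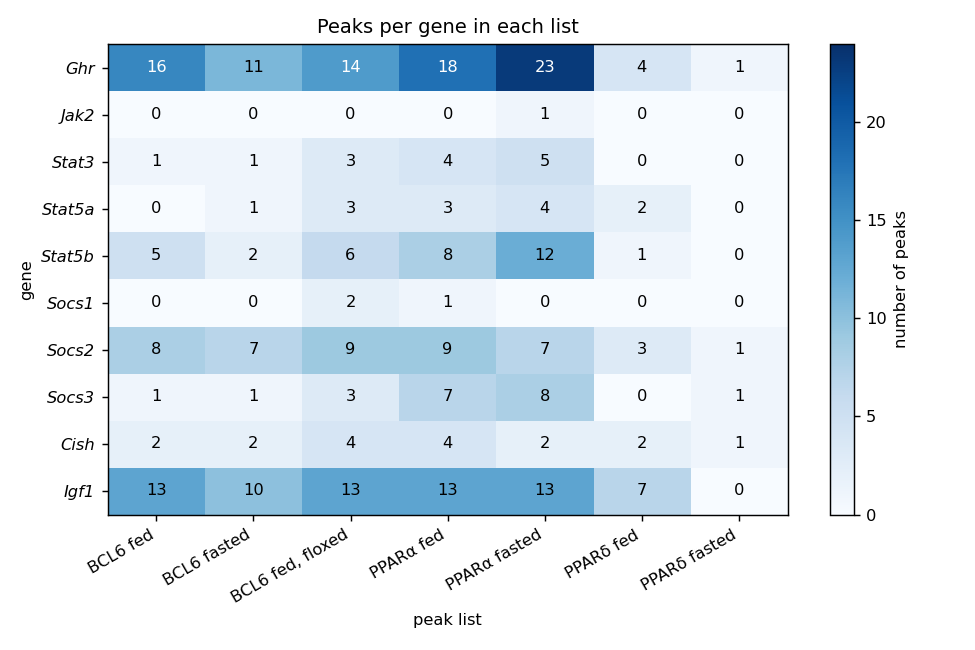
Number of peaks (color and printed number) at each of the 10 genes (rows) in each of the 7 lists (columns). *Ghr* and *Igf1* had the most peaks in the BCL6 lists, *Jak2* had a single peak in 1 list, and the fasted PPARδ column holds 1 peak at each of 4 genes.

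*Ghr*, which encodes the growth hormone receptor (chr15:3317755-3583352, minus strand), had 16 fed, 11 fasted and 14 floxed BCL6 peaks, 18 fed and 23 fasted PPARα peaks, and 4 fed and 1 fasted PPARδ peaks. All 11 fasted BCL6 peaks and all 18 fed PPARα peaks recurred in the other feeding state of the same factor, and 13 of the 16 fed BCL6 peaks recurred in floxed livers. Of its 26 sites 19 lay in introns, 6 upstream and 1 in the first exon. A group of sites stood inside introns 1 and 2, from 83.1 to 146 kb downstream of the 5′ end. Sites in that stretch at 92.3, 94 and 97.8 kb, and at 131 kb, were called in both states for BCL6 and PPARα and in floxed livers, and the site at 118 kb had fed PPARδ as well. The intron 9 site at 260 kb was called in the same 5 lists.

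Upstream of *Ghr*, the site at 18.6 kb was called for every factor in both states. The sites at 35.1 kb and 56.9 kb upstream were called in 6 lists, all but fasted PPARδ, and the site at 24.9 kb in 5 lists. At 37.2 kb upstream and 4.56 kb downstream of the 5′ end, BCL6 was called in fed and floxed but not in fasted livers, while PPARα was called in both states. The promoter sites, 66 bp and 1.14 kb from the 5′ end, were called for PPARα in both states and in no BCL6 list. For the 6 *Ghr* sites farthest downstream the nearest start was that of another gene, *Ccdc152*.

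*Jak2*, the kinase bound to the receptor (chr19:29251803-29313095, plus strand), had a single site. It lay 125 bp upstream of the start and was called for PPARα in fasted livers alone. *Jak2* was the only one of the 10 genes with no BCL6 peak in any list.

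The 3 STAT genes lie in a row on chromosome 11. *Stat5b* (chr11:100780731-100859004, minus strand), which encodes the main STAT5 of hepatocytes, had 5 fed, 2 fasted and 6 floxed BCL6 peaks, 8 fed and 12 fasted PPARα peaks, 1 fed PPARδ peak and no fasted PPARδ peak. Of its 5 fed BCL6 peaks 1 recurred in fasted livers, where 48.9% of the whole list did, and 4 in floxed livers, against 69.4%. All 8 fed PPARα peaks recurred in fasted livers, against 79.9% of the whole list. With so few peaks, the difference from the whole lists was not tested. All 13 sites lay in introns, 11 of them in the long first intron. The site at 29.9 kb from the 5′ end was called in both states for BCL6 and PPARα and in floxed livers. At 16.7 and 21.8 kb BCL6 was called in fed and floxed livers only, beside PPARα in both states. The promoter-proximal sites of *Stat5b* belong to internal starts at 36.4 kb, with fed BCL6 and PPARα in both states, and at 8.38 kb, with fasted PPARα alone.

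*Stat5a* (chr11:100859351-100885169, plus strand) had no fed, 1 fasted and 3 floxed BCL6 peaks, 3 fed and 4 fasted PPARα peaks, and 2 fed and no fasted PPARδ peaks. Its promoter site 49 bp from the 5′ end was called for floxed BCL6, PPARα in both states and fed PPARδ, and a second one at 1.06 kb was called for floxed BCL6 and for PPARα in both states. The intron 5 site printed above had fasted and floxed BCL6, fed PPARα and fed PPARδ. *Stat3* (chr11:100886806-100939594, minus strand), a STAT of the interleukin-6 response, had 1 fed, 1 fasted and 3 floxed BCL6 peaks, 4 fed and 5 fasted PPARα peaks and no PPARδ peak. The fed and the fasted BCL6 peak lay at different sites. The site 1.29 kb into its first intron had fasted and floxed BCL6 and PPARα in both states, and the promoter site 162 bp upstream had PPARα in both states and no BCL6. Both genes therefore had BCL6 calls in floxed fed livers at sites where wild-type fed livers had none.

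Among the inhibitors, *Socs2* (chr10:95383903-95417321, minus strand), a growth hormone target that restrains GHR signaling, had 8 fed, 7 fasted and 9 floxed BCL6 peaks, 9 fed and 7 fasted PPARα peaks, and 3 fed and 1 fasted PPARδ peaks. All 8 fed and all 7 fasted BCL6 peaks recurred in floxed livers, and 6 of the 8 fed peaks in fasted livers. A group of sites stood upstream of the gene. At 13.1 kb upstream all 7 lists had a call, at 9.11 kb all but fasted PPARδ, and at 12 and 21.8 kb both states of BCL6 and PPARα and the floxed list. The site in the first exon and one in an untranslated exon, 423 bp and 31.4 kb from the 5′ end, were called in the same 5 lists. The promoter site 650 bp upstream had PPARα in both states and fed PPARδ, with no BCL6.

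*Cish* (chr9:107296659-107302784, plus strand), a SOCS family member induced by STAT5, had 2 fed, 2 fasted and 4 floxed BCL6 peaks, 4 fed and 2 fasted PPARα peaks, and 2 fed and 1 fasted PPARδ peaks. The same pair of sites carried the fed and the fasted BCL6 peaks. The promoter site, 75 bp from the 5′ end (chr9:107296567-107296897), was called in all 7 lists, and the site at 11.4 kb in all but fasted PPARδ.

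*Socs3* (chr11:117966079-117970336, minus strand), a feedback inhibitor induced by STAT3, had more PPARα than BCL6 peaks: 1 fed, 1 fasted and 3 floxed BCL6 peaks stood beside 7 fed and 8 fasted PPARα peaks. It had no fed and 1 fasted PPARδ peak. The site at 4.98 kb was the only one with BCL6 in both states. The site at 6.87 kb was called for floxed BCL6, for PPARα in both states and for fasted PPARδ, the only fasted PPARδ call at these genes without a fed one. Its promoter sites, 44 bp upstream and 1.02 kb from the 5′ end, were called for PPARα in both states, the second also for floxed BCL6. *Socs1* (chr16:10783808-10785536, minus strand), which inhibits interferon signaling through the janus kinases, had only floxed BCL6 peaks, 2 in number, and 1 fed PPARα peak, at sites 72 kb and 16.6 kb downstream. The farther one lies inside another gene, *Clec16a*.

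*Igf1*, the growth factor that the liver secretes under growth hormone (chr10:87858265-87937047, plus strand), had 13 fed, 10 fasted and 13 floxed BCL6 peaks, 13 fed and 13 fasted PPARα peaks, and 7 fed and no fasted PPARδ peaks. All 10 fasted BCL6 peaks recurred in fed livers, 11 of the 13 fed peaks in floxed livers, and 10 of the 13 PPARα peaks of either state in the other state. The sites stood mainly in introns 2 and 4. Those at 36.6, 39.2, 48 and 48.8 kb in intron 2 and at 57.7 kb in intron 4 were each called in all lists but fasted PPARδ, so 5 of the 7 fed PPARδ peaks lay on sites that kept BCL6 and PPARα in fasted livers. The sites at 27.6 and 68.9 kb had both states of BCL6 and PPARα and floxed BCL6, and the site at 37.3 kb had the 4 wild-type calls without the floxed one.

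Near the *Igf1* start, the site 509 bp upstream had BCL6 in both states and in floxed livers and PPARα only in fasted livers, and the promoter site at 452 bp had fasted PPARα alone. At 8.39 kb BCL6 was called in all 3 lists and PPARα only in fed livers. The site 26 kb upstream had BCL6 in fed and floxed livers and PPARα in both states.

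**Figure D2:**
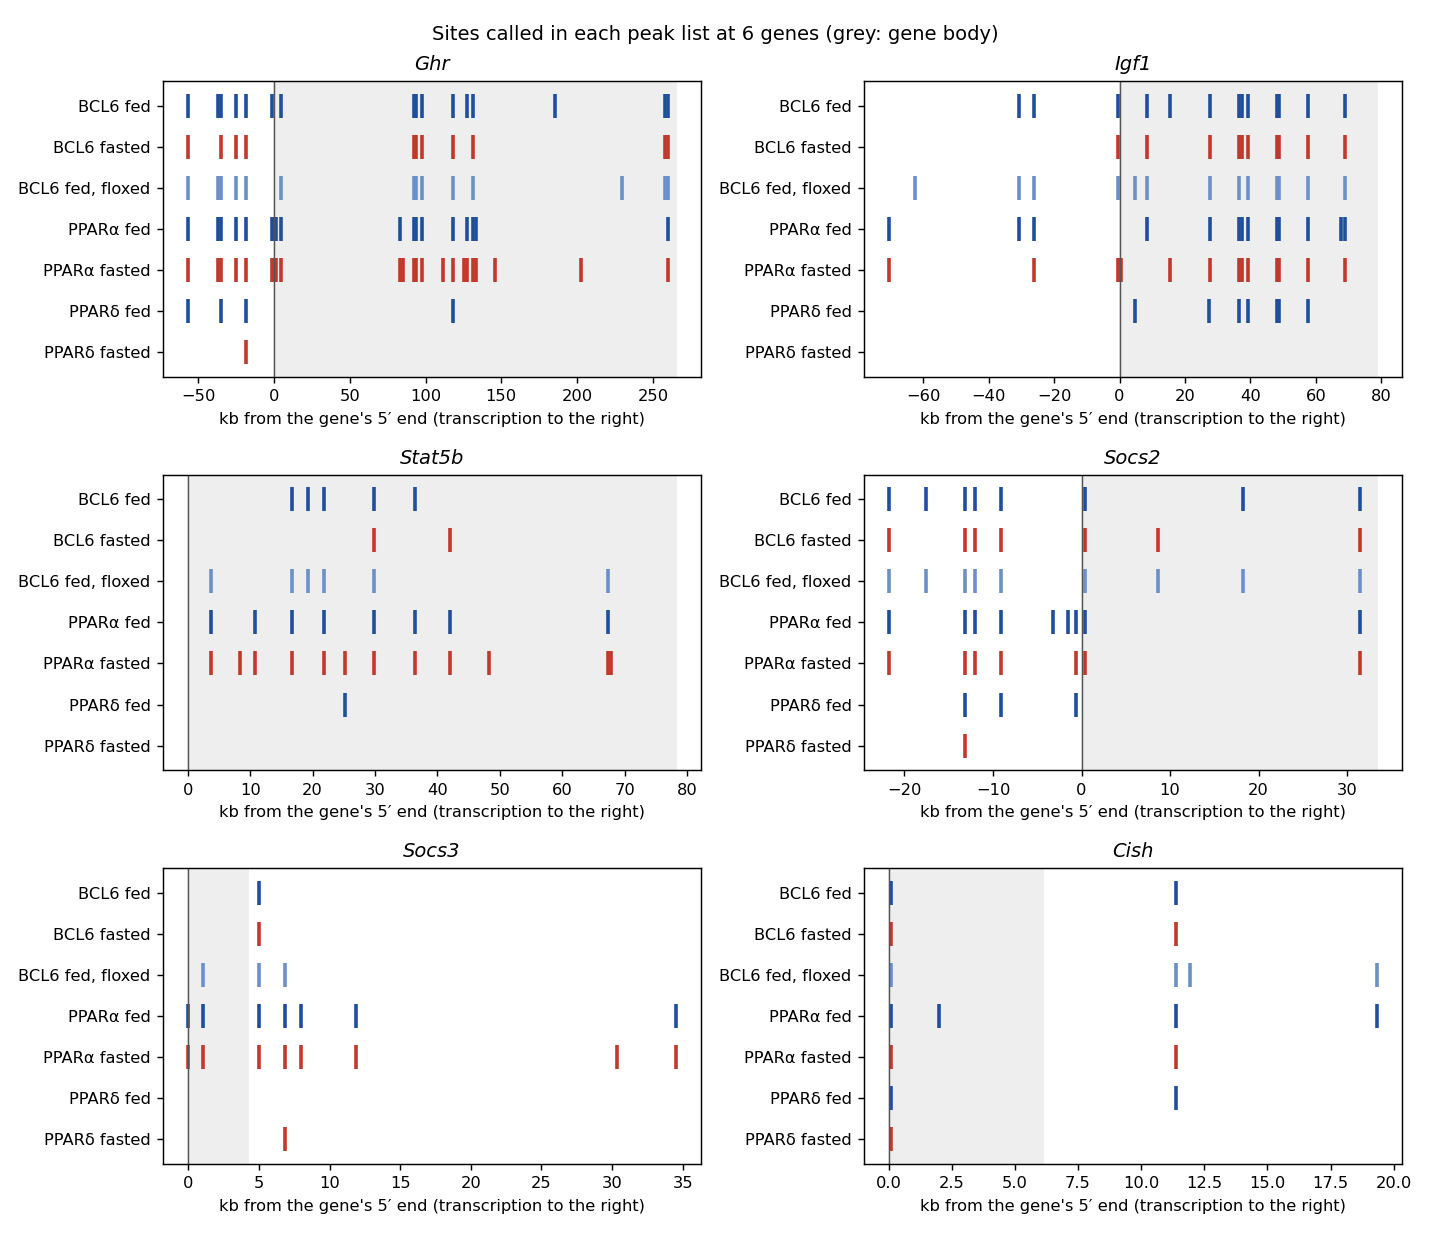
Sites called in each of the 7 lists (rows; blue, fed; light blue, fed floxed; red, fasted) at *Ghr*, *Igf1*, *Stat5b*, *Socs2*, *Socs3* and *Cish*, by distance in kb from the 5′ end of the gene with transcription to the right and the gene body in grey. *Igf1* had 7 fed PPARδ sites and none in fasted livers, and *Stat5b* had 5 fed against 2 fasted BCL6 sites.

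To ask how far binding at these genes depended on feeding, each list was compared with that of the other state, peak by peak. Of the fed BCL6 peaks 31 of 46, or 67.4% (95% Wilson interval 53% to 79.1%), had a fasted BCL6 peak within 200 bp, where 48.9% of the whole fed list did. Of the fasted BCL6 peaks 31 of 35, or 88.6% (74% to 95.5%), had a fed peak, against 79.6%. For PPARα 58 of 67 fed peaks, or 86.6% (76.4% to 92.8%), recurred in fasted livers, against 79.9%, and 58 of 75 fasted peaks, or 77.3% (66.7% to 85.3%), recurred in fed livers, against 58.8%. The share at these genes was higher than that of the whole list in each of these comparisons, and the whole-list share lay outside the interval for fed BCL6 and for fasted PPARα. For PPARδ 3 of 19 fed peaks, or 15.8% (5.52% to 37.6%), had a fasted peak, with 20.9% of the whole list inside the interval, and 3 of 4 fasted peaks had a fed one, against 63.8%. The intervals cover counting error only, and peaks of 1 gene share their source. The fasted BCL6 and PPARδ lists are shorter than the fed ones as a whole, and a lost call at a single gene cannot be told apart from a list that calls fewer peaks.

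The floxed list allowed fed BCL6 to be compared between separate sets of livers. Of the 46 fed wild-type peaks 40, or 87% (74.3% to 93.9%), recurred in floxed livers, against 69.4% of the whole list, which lay outside the interval. Of the 57 floxed peaks 40, or 70.2% (57.3% to 80.5%), recurred in wild-type fed livers, against 62.2%, which lay inside the interval. Of the 35 fasted peaks 33, or 94.3% (81.4% to 98.4%), had a floxed peak, against 80.4%, also outside the interval. A share above that of the whole list was therefore not limited to comparisons between feeding states of wild-type livers. Where wild-type livers had BCL6 in the fed state alone, 10 of 15 sites (41.7% to 84.8%) had a floxed call, where 51.1% of all such sites did. Among sites of both states 30 of 31 (83.8% to 99.4%) did, against 88.7%. Of the 4 sites with BCL6 in fasted wild-type livers only, 3 (30.1% to 95.4%) had a floxed call although those mice were fed, against 49.1%. For each of these classes of site the share over all sites lay inside the interval.

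**Figure D3:**
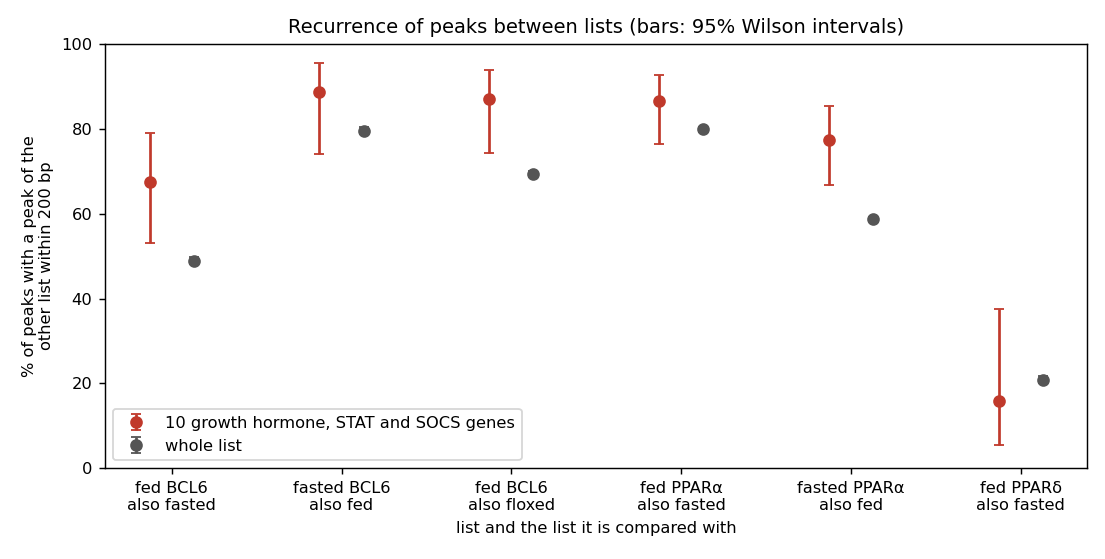
Percent of the peaks of 1 list with a peak of another list within 200 bp (vertical axis), for peaks at the 10 genes (red) and for the whole list (grey), with 95% Wilson intervals. At the 10 genes 67.4% of fed BCL6 peaks and 15.8% of fed PPARδ peaks recurred in fasted livers, and 87% of fed BCL6 peaks recurred in floxed livers.

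BCL6 and PPARα met at most BCL6 sites of these genes. Of 50 sites with BCL6 in wild-type livers 44, or 88% (76.2% to 94.4%), also had PPARα, against 77.6% of all BCL6 sites, and of 84 PPARα sites 52.4% (41.8% to 62.7%) had BCL6, against 40.9%. *Ghr* held 14 of these shared sites and *Igf1* 13, *Socs2* had 6, *Stat5b* 5, *Stat3* and *Cish* 2 each, *Stat5a* and *Socs3* 1 each, and *Jak2* and *Socs1* none, so 8 of the 10 genes had one, where 25.1% of protein-coding genes did. As many shared sites as at *Ghr* or more were found at 0.0689% of protein-coding genes, and as many as at *Igf1* or more at 0.11%. Both genes are long, and these ranks by count were not adjusted for length. The median distance between BCL6 and PPARα centers at the shared sites was 11 bp and the longest was 85 bp, with a median of 14 bp over all shared sites. PPARδ was called at 14 of the 44, or 31.8% (20% to 46.6%), where 34.1% of all shared sites had it.

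Counted by site, BCL6 was called in both states at 31 of the 50, or 62% (48.2% to 74.1%), against 43.7% of all BCL6 sites. It was called in fed livers only at 15, or 30% against 45.3%, and in fasted livers only at 4, or 8% against 11%. PPARα was called in both states at 58 of 84 sites, or 69% (58.5% to 77.9%), against 51.3%, in fed livers only at 9, or 10.7% against 12.8%, and in fasted livers only at 17, or 20.2% against 35.8%. PPARδ was called in fed livers only at 16 of 20 sites, or 80% (58.4% to 91.9%), against 70.7%, and in both states at 3, or 15% against 18.7%. The fasted-only share of PPARα sites was thus smaller than over all sites, beyond its interval of 13% to 30%.

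At 28 of the 31 sites with BCL6 in both states, PPARα was also called in both states, or 90.3% (75.1% to 96.7%), against 78.2% of all such sites. At the 15 fed-only BCL6 sites, PPARα was called in both states at 8, in fasted livers only at 2, in fed livers only at 1 and in neither at 4. The 8 are 53.3% (30.1% to 75.2%), against 43% of all fed-only BCL6 sites, and the 2 are 13.3% (3.74% to 37.9%), against 10%.

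The sites at these genes were also called in more lists than sites elsewhere. In 5 or more lists 27 sites were called, or 27.8% (19.9% to 37.5%), against 17.3% of all sites, and 24 sites, or 24.7% (17.2% to 34.2%), were called in 1 list only, against 39.6%. The 3 sites called in all 7 lists, 3.09% (1.06% to 8.7%) against 1.6%, were those at the *Cish* promoter, 13.1 kb upstream of *Socs2* and 18.6 kb upstream of *Ghr*. A further 5 sites, 5.15% against 5.01%, were called in the floxed list only.

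Most sites lay away from promoters. Of the 97 sites 55 were in introns, 22 upstream, 12 downstream, 7 in untranslated exons and 1 in a coding exon of *Stat3*. Promoters were taken as the 1000 bp before and the 100 bp after any transcript start, and held 15 sites, of which 4 had BCL6 in wild-type livers: at *Cish*, at the first exon of *Socs2*, upstream of *Igf1* and at an internal start of *Stat5b*. This is 8% of the 50 BCL6 sites, against 5.19% of all BCL6 sites. The other 11 were 27.5% of the 40 PPARα sites without BCL6 in wild-type livers, against 21.3% of all such sites. Among these 11, the promoter sites of *Stat5a* and that of *Socs3* at 1.02 kb had BCL6 calls in floxed livers. The promoter shares rest on 4 and 11 sites and their differences from all sites were not tested.

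The elements were then searched on both strands in the 200 bp around each site center. TTCNNNGAA was allowed no mismatch, TTCCTAGAA 1 and the DR1 element 2, and TTCCTAGAA is itself a case of TTCNNNGAA, so these overlap. Of 64 sites with BCL6 in any of its 3 lists, 23 held the STAT core, or 35.9% (25.3% to 48.2%), against 13.8% of all 23201 BCL6 sites. In windows 1000 bp to either side the share was 6.25% at these genes and 6.28% over all BCL6 sites. TTCCTAGAA was found at 21 sites, or 32.8% (22.6% to 45%), against 15.1%, and the DR1 element at 3 sites, or 4.69% (1.61% to 12.9%), against 11.8%. The share with a STAT core therefore lay above that of all BCL6 sites by more than the counting error, while 11.8% lay inside the interval for DR1.

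The cores were spread over 9 of the 10 genes, all but *Jak2*, and 14 different core sequences occurred among 29 matches. They were present at 6 of 9 BCL6 sites of *Socs2*, 5 of 15 of *Igf1*, 3 of 17 of *Ghr*, 2 of 4 of *Cish*, 2 of 3 of *Socs3*, both of *Socs1*, 1 of 3 each of *Stat3* and *Stat5a*, and 1 of 8 of *Stat5b*. *Socs2* thus held a core at most of its BCL6 sites and *Ghr* at few, although both had long series of shared sites. TTCCAGGAA, read on either strand, was the most frequent with 8 matches, followed by TTCCAAGAA with 5 and TTCCTAGAA, the BCL6 element itself, with 3. The median distance from core to site center was 51 bp. In windows of 100 bp the share with a core was 20.3% (12.3% to 31.7%), against 8.43% of all BCL6 sites.

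More than 1 core stood at 4 of the 64 sites, or 6.25% (2.46% to 15%), against 1.07% of all BCL6 sites. These were the *Cish* promoter with 4 cores, the first exon of *Socs2* and sites of *Igf1* at 4.78 and 48.8 kb. Cores side by side within 30 bases, as in the first sequences above, stood at 2 of the 64 sites, or 3.12% (0.861% to 10.7%), against 0.233%. That spacing was chosen after the matches at these same sites were seen, so the difference between these shares is descriptive and was not tested. By feeding state the intervals overlapped: 12 of 31 sites with BCL6 in both states held it, or 38.7% (23.7% to 56.2%), and 4 of 15 sites of fed livers only, or 26.7% (10.9% to 52%), with 14.5% and 14.2% over all sites of these classes. With PPARα the share was 30.8% (19.9% to 44.3%) of 52 sites, against 10.3% of all, and without PPARα 58.3% (32% to 80.7%) of 12 sites, against 23.7%.

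**Figure D4:**
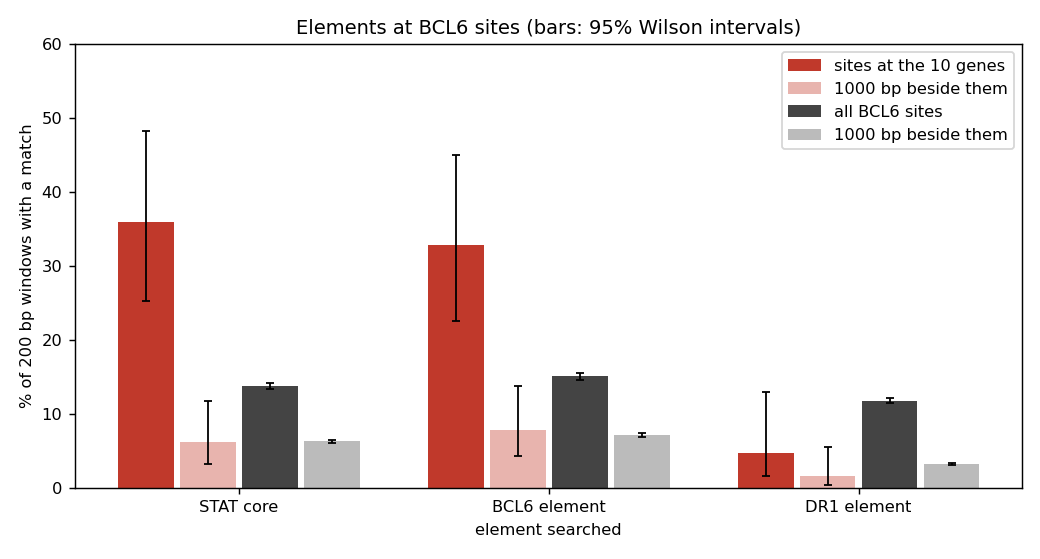
Percent of 200 bp windows with a match (bars, with 95% Wilson intervals) to the STAT core TTCNNNGAA, the BCL6 element TTCCTAGAA (up to 1 mismatch) and the DR1 element (up to 2 mismatches) at BCL6 sites of the 10 genes, at all BCL6 sites, and in windows 1000 bp beside each. The STAT core was found at 35.9% of BCL6 sites at the 10 genes and 13.8% of all BCL6 sites.

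PPARα sites of these genes with no BCL6 in any list held the core at 4 of 32, or 12.5% (4.97% to 28.1%), against 5.73% of all such sites. TTCCTAGAA was found at 6.25% of them, against 4.97%, and the DR1 element at 9.38%, against 14.4%. PPARδ sites held it at 10 of 20, or 50% (29.9% to 70.1%), against 10.2% of all PPARδ sites. Of those 20 sites 17 also had BCL6 in any of its 3 lists, or 85% (64% to 94.8%), against 69.1%, and 14 had it in wild-type livers, or 70%, against 57.8%. At 18 of the 20 PPARα was called, or 90%, against 85.1%. TTCCTAGAA was found at 35% (18.1% to 56.7%) of the 20, against 9.41%, and the DR1 element at 3, or 15% (5.24% to 36%), against 21%. A match describes the letters in a window and does not show which factor bound there.

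In the 250 bases upstream of RefSeq starts, TTCNNNGAA was found in 7.02% of 32851 promoters and TTCCTAGAA in 7.46%. The scan did not cover every annotated start of the 10 genes. It covered starts of 9 of them and none of the 13 starts of *Socs2*. Among the scanned starts only those of *Socs3* had matches, 1 to TTCNNNGAA and 2 to TTCCTAGAA. At *Socs2*, the first-exon site with 2 cores has its center 41 bp upstream of an annotated start, a stretch that was not scanned. The cores of the *Cish* promoter site begin at the annotated start and lie outside the 250 bases.

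The genes around this pathway were sorted into lists by role. The share of all protein-coding genes with a site, 52.5%, is the background of these counts. Of the other janus kinases and STATs 6 of 7 had a site, with the most at *Jak1*, 15, and none at *Tyk2*. In fed wild-type livers BCL6 was called at 1 of the 7, *Jak1*, where 28% of protein-coding genes had it. The floxed list had BCL6 at further genes of this group. Of the other SOCS genes 3 of 4 had a site, with the most at *Socs5*, 4, and none at *Socs6*. Among 15 cytokine receptors of the JAK-STAT pathway 14 had a site, led by *Prlr*, the prolactin receptor, a close relative of *Ghr*, with 18, of which 12 were shared by BCL6 and PPARα, and *Ifngr1* had none. Of 10 genes of the IGF axis 9 had a site, led by *Igfbp1*, which encodes an IGF binding protein, with 12, and *Igfbp6* had none. Of 14 phosphatases, adaptors and PIAS proteins 11 had a site, led by *Ptpn1* with 23, and *Pias3*, *Pias4* and *Ptpn11* had none. Median sites per gene were 1, 1.5, 4, 3 and 2 in these lists, in this order, against 7 at the 10 genes and 1 over all protein-coding genes. Beside the same 28%, fed BCL6 was called at 1 of the 4 other SOCS genes and 11 of the 15 cytokine receptors. It was called at 6 of the 10 IGF axis genes and 6 of the 14 phosphatases, adaptors and PIAS proteins.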

How the data were processed

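Per the labels and the study's methods, the authors placed ChIP-seq reads on mm10 by Bowtie, used reads with 1 place in the genome and 1 read per start position, called peaks with HOMER over pooled replicates against input, and kept peaks enriched by DESeq2 on single libraries. The deposited lists hold peak positions in bp, with no score, count or p-value, so depth is unknown and no test over replicates could be made. A binding site with little enrichment can be missing from a list, and a shorter list can reflect depth as well as binding. The study's methods call the replicates biological.

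Positions were matched to RefSeq genes on GRCm38.p6, the build of mm10. Peaks were joined by single linkage of centers within 200 bp, over the whole table. Intron and exon numbers follow the first listed curated transcript. Shares have 95% Wilson intervals. The 10 genes, the gene lists and the comparisons were chosen with earlier results of these data known. Sites named are those called in at least 4 of the 7 lists, those at promoters and the top site of each gene, and genes of the pathway lists are named when they have the most or no sites in their list. Sites with more than 1 core and the sites that bound a described stretch or make up a gene's few sites are named in addition, a choice made with their values in view. Simulated positions and planted elements were used to test the code. Python 3.11.15, NumPy 2.4.6, pysam 0.24.0, samtools 1.23.1 and Matplotlib 3.10.9 were used. The other samples, including knockout and histone ChIP-seq, were not analysed here.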

Additional observations from a re-analysis of the deposited data

How the results depend on the processing

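No paired analysis was possible because the lists pool the replicates and hold no value per replicate, and for the same reason no replicate could be left out. Of 195 values under other settings, 177 moved by less than 1.5 times or stayed within their interval. Counting only peaks inside genes gave 63 sites, 29 of them shared by BCL6 and PPARα, and 30 peaks of fed BCL6, 36 of floxed BCL6, 41 of fed PPARα, 12 of fed PPARδ and 1 of fasted PPARδ. It left *Jak2* and *Socs1* with 0 sites, *Socs3* with 1, *Cish* with 2 and *Socs2* with 4. Counting by the nearest start alone gave *Ghr* 14 sites, fewer than the 19 of *Igf1*, and a reach of 50 kb gave *Socs1* 1. In windows of 100 bp the STAT core was at 20.3% and TTCCTAGAA at 15.6% of BCL6 sites. With 1 mismatch fewer TTCCTAGAA was at 4.69% and the DR1 element at 0%. Starts of curated transcripts only, an alternative chosen after seeing the data, moved no value past these limits. Depth is unknown, so a missing call is not shown to be missing binding.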

Other observations

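Genes whose liver expression differs between the sexes under growth hormone were counted in the same lists. All 19 had a site, against 52.5% of protein-coding genes, with 114 sites in all and a median of 5 per gene. BCL6 was called at 18 of the 19 in fed livers, against 28% of protein-coding genes, and at 18 in fasted livers, against 20.6%. PPARα was called at 17 in fed livers, against 34.3%, and at 18 in fasted livers, against 46%. PPARδ was called at 10 in fed livers, against 18.6%, and at 3 in fasted livers, against 8.69%. Fed BCL6 had 73 of these sites and fasted BCL6 44, while PPARα had 73 and 79. *Bcl6* itself, which is expressed more in male liver, had the most, 17 sites, with BCL6 called at 11 in fed, 6 in fasted and 12 in floxed livers. At 9 of the 17 BCL6 and PPARα were both called. This list was chosen with earlier results of these data known, and it includes *Acot3*, at a locus where the study itself showed BCL6 and PPARα binding. The background holds all protein-coding genes, also those with no site in any list. The shares are therefore descriptive and were not tested. All livers were from males, and no female liver was analysed here.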
